A study of Mus musculus with 6 samples.

Results

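The enzymes of glycolysis, gluconeogenesis and the citric acid cycle were examined in kidney cells of mice with and without deletion of Trf1, the gene (symbol Terf1) for a protein that binds telomeres. The set was named gene by gene as 44 enzymes, of which 43 have a row among the 12125 genes of the deposited table. Hk2, an inducible hexokinase, has no row, so its expression was not analysed here. Both genotypes, Trf1+/+ and Trf1flox/flox, carried Col1a2-CreERT2, a Cre recombinase driven by a collagen promoter and active only with tamoxifen, and the KFP reporter of a red fluorescent protein (KFP+/t Cre+/t), so the floxed alleles were the only labelled difference. Male and female mice of 6 to 8 weeks of age received intraperitoneal tamoxifen 3 times a week for 8 weeks. Kidney cells were then sorted with antibodies to CD29 and to the reporter, and 500 cells per mouse gave 1 RNA-seq library, 3 libraries per genotype. The comparison asks how the levels of these enzymes differ once Trf1 has been deleted, in a study that also followed hypoxia, a state in which glycolytic genes are classically induced.

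Glycolysis splits glucose into pyruvate in the cytosol. Pyruvate is either reduced to lactate or imported into mitochondria, where the pyruvate dehydrogenase complex turns it into acetyl-CoA for the citric acid cycle. The kidney also makes glucose: gluconeogenesis takes place in the proximal tubule, which relies mostly on oxidative fuels, while more distal segments use more glucose. In low oxygen, the transcription factor HIF1 binds DNA at the short core ACGTG in many glycolytic genes.

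The libraries held 10263382 to 12248797 reads on listed genes. Values are normalized counts, reads divided by a size factor per library, and 1 read was worth 0.689 to 1.09 normalized counts. Values are given below in the order replicate 1, 2 and 3 of each genotype, and the numbers pair no mice. Terf1, the targeted gene, summed over the whole gene, stood at 0.891, 253 and 235 normalized counts for Trf1+/+ and at 110.0, 7.65 and 12.4 for Trf1flox/flox. With 1 read, the library labelled Trf1+/+ replicate 1 stood below every Trf1flox/flox library in Terf1, the reverse of its label. Whether a wrong label or a loss of transcripts lies behind the low count in this library was not tested. Of the genes that average 100 or more normalized counts elsewhere, 12.9% were at 0 in it, 9.01% in Trf1flox/flox replicate 2 and 0.932% to 3.68% in the other 4, and results are given with and without it. Trf1flox/flox replicate 1, with 128 Terf1 reads, lay between the other Trf1flox/flox libraries and Trf1+/+ replicates 2 and 3. The label of fibroblasts was not borne out by defining markers. Of 11 fibroblast genes, Col1a2 and Dcn were listed, at no more than 1.78 and 97.3 normalized counts. All 12 proximal tubule markers were listed, with a summed level of 16254 to 125232 normalized counts. In such bulk RNA, fewer cells of a type and less RNA per cell cannot be told apart.

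The enzymes were among the most abundant transcripts. Per kilobase of exon, 28 of the 42 enzymes with a known length lay in the top 10% of listed genes, and their median was 786 normalized counts per kb against 32.2 for the 11888 listed genes with a length. Ldhb, the heart-type subunit of lactate dehydrogenase, led with 30219.5 normalized counts per kb and ranked 17th of all these genes. Mdh1, the cytosolic malate dehydrogenase, followed with 10875, and Fbp1, the fructose bisphosphatase of gluconeogenesis, with 5182 normalized counts per kb. The lowest levels per kb belonged to Pklr with 9.39, Pdk4 with 33.1 and G6pdx with 44.4 normalized counts per kb. Of the 43 enzymes, 39 stood above 3 reads in every library. The exceptions were Pfkl, Pklr, Pdk4 and G6pdx, of which the last 3 were at 0 in at least 1 library.

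**Figure D1:**
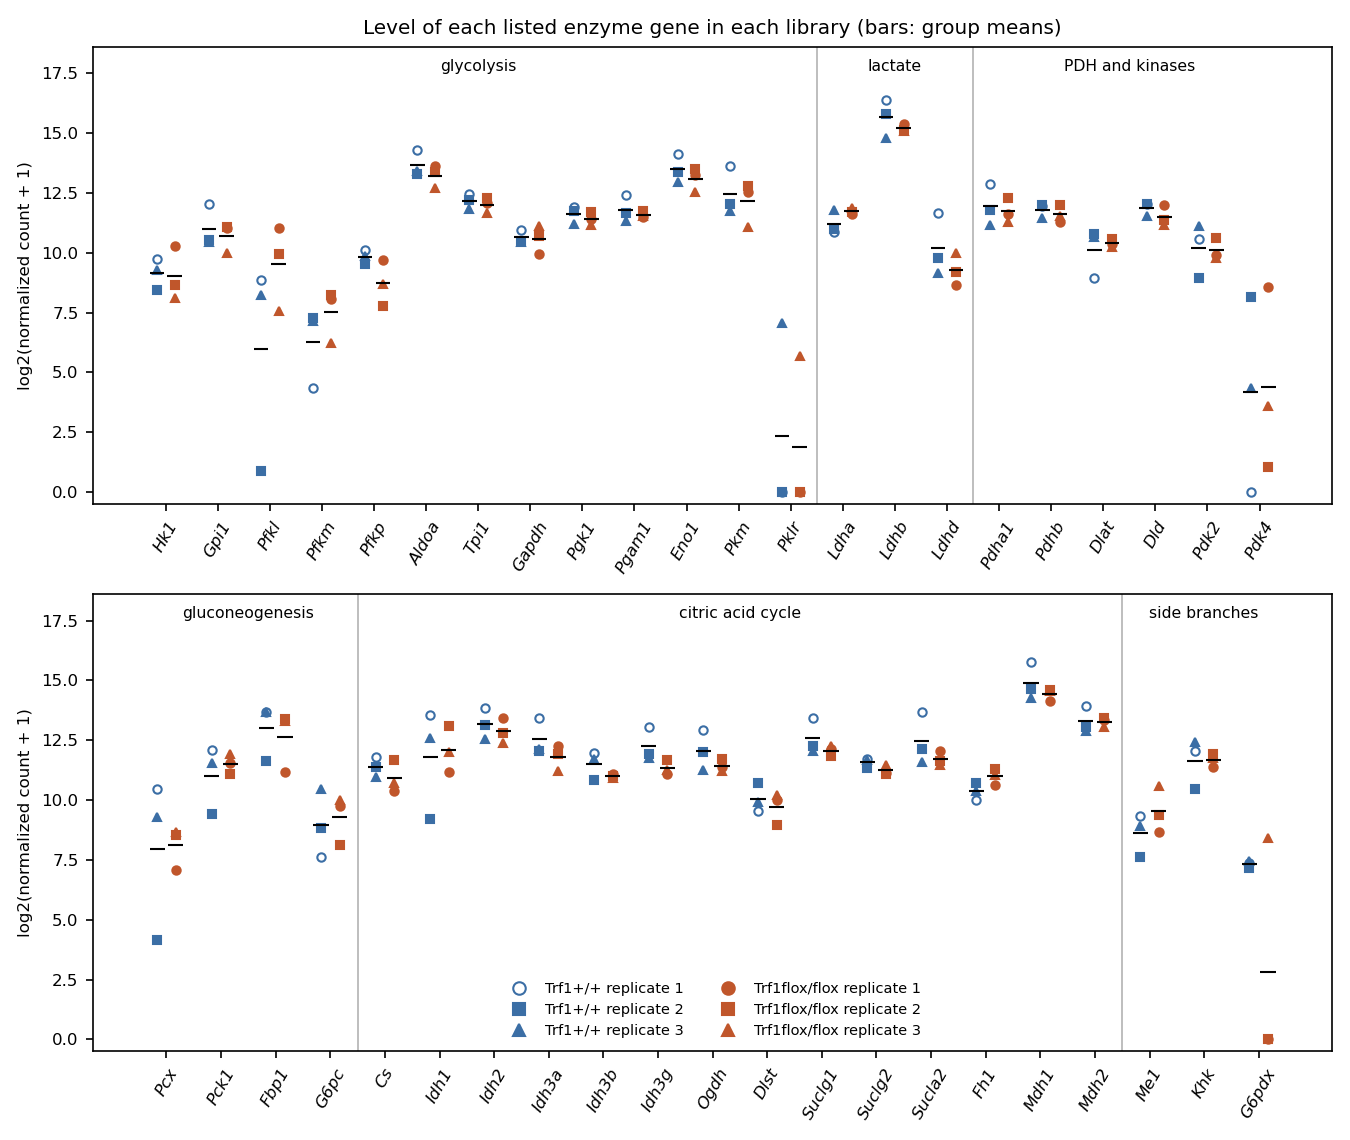
Each point is 1 library and each column 1 of the 43 listed enzyme genes, grouped by role, with log2(normalized count + 1) on the vertical axis and a bar at each group mean. Open circles mark the library labelled Trf1+/+ replicate 1, which is the highest of the 6 libraries for 25 of the 42 tested enzymes, and PDH stands for pyruvate dehydrogenase.

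No enzyme of the set passed the test for a difference between genotypes. Differences were taken on the log2(normalized count + 1) scale and tested with limma over 9966 genes that reached 10 normalized counts in 3 or more libraries, among them 42 of the enzymes (Pklr was too low). At an adjusted p under 0.05 limma called 0 enzymes and 0% of all tested genes. At an unadjusted p under 0.05 it called 0 enzymes against 4.56% of all tested genes. edgeR on the recovered reads called 0 enzymes and 0% of genes after adjustment, with 0 enzymes and 1.97% of genes before it. DESeq2 called 0 enzymes and 0.582% of genes after adjustment, with 0 enzymes and 4.11% of genes before it. For 37 of the 42 enzymes the log2 fold change was smaller than its standard error in limma as reported, with 1 variance prior for all genes. The median SE of the enzymes was 0.83 on the log2 scale, and a difference of this size was not detectable in this fit with 3 mice per genotype. With a variance prior that follows the mean, the SE was smaller for abundant enzymes such as Aldoa (0.43 against 0.79) and Ldhb (0.45 against 0.81). It was larger for Pfkm (1.52 against 1.17). With this prior the fold changes of Aldoa, Ldha and Ldhb, among others, exceeded their SE, and limma still called 0 enzymes before and after adjustment.

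The signs leaned to lower values in Trf1flox/flox. How many signs lay below 0 depended on single libraries and on the scaling. The log2 fold change was above 0 for 12 enzymes and below 0 for 30, with a median of -0.25, while 55.9% of all tested genes had a value above 0 and their median was 0.20. Among the 1221 tested genes that average 1000 or more normalized counts, the median was -0.21, against -0.32 for the 33 enzymes at that level. The average is over all 6 libraries, so genes high in a single library can pass through it. Without the library labelled Trf1+/+ replicate 1 the enzymes divided into 19 above and 23 below 0, with a median of -0.06 against -0.03 for all tested genes. Without Trf1flox/flox replicate 1 they divided into 13 above and 29 below 0, with a median of -0.25 against 0.17 for all tested genes, and limma called 0 enzymes after adjustment. Without Trf1flox/flox replicate 3 they divided into 17 above and 25 below 0, with a median of -0.13 against 0.13 for all tested genes. Leaving out any of the other libraries widened the gap between both medians. The medians of the enzymes and of all tested genes were -0.44 and 0.22 without Trf1+/+ replicate 2. They were -0.40 and 0.30 without Trf1+/+ replicate 3, and -0.32 and 0.34 without Trf1flox/flox replicate 2. Scaling the libraries to the same upper quartile gave 20 above and 22 below 0, with a median of -0.04 against 0.39 for all tested genes. The enzyme median minus that of all tested genes was then -0.42. It was -0.45 both with the deposited scaling and with scaling to total listed reads. The medians of the enzymes and of all tested genes were -0.30 and -0.04 with edgeR, and -0.32 and -0.05 with DESeq2. The 4 distal tubule markers summed to 61939, 59109 and 39246 normalized counts for Trf1+/+ and 31181, 17263 and 29701 for Trf1flox/flox. With the deposited scaling these sums did not overlap. Scaling to total listed reads multiplies Trf1+/+ replicate 3 by 0.97 and Trf1flox/flox replicate 3 by 1.39, and the sums then overlap. With upper quartile scaling the sums did not overlap. Of the 4, Slc12a3 and Calb1 did not overlap as deposited, both lower in Trf1flox/flox, while Pvalb and Trpm6 overlapped. Slc22a8, a proximal tubule marker, did not overlap and was higher in Trf1flox/flox. Over all tested genes, 3.33% did not overlap and were lower, and 5.35% were higher. The part of these markers in the lean of the enzymes was not tested.

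**Figure D2:**
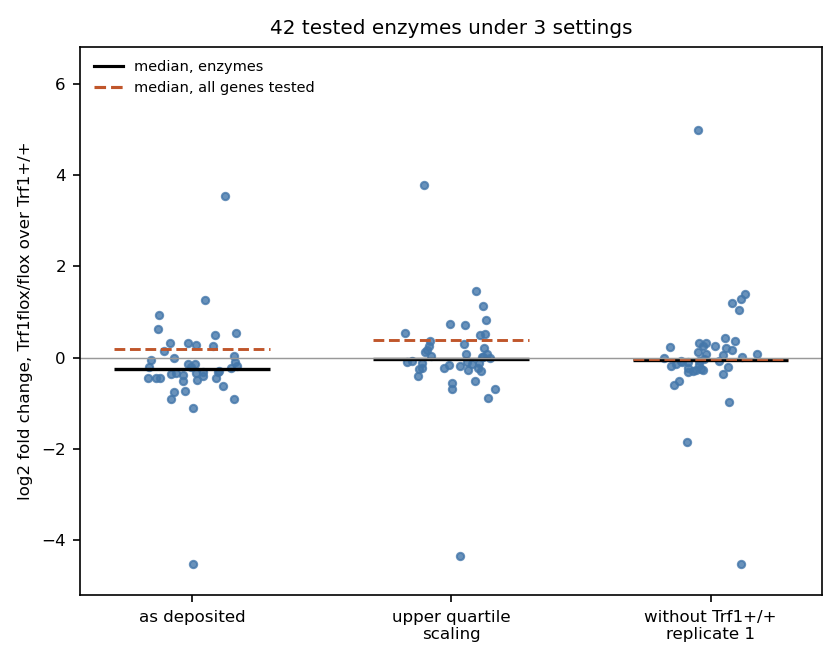
Each point is the log2 fold change of 1 of the 42 tested enzymes, Trf1flox/flox over Trf1+/+, under 3 settings on the horizontal axis, with a solid bar at the median of the enzymes and a dashed bar at the median of all tested genes. The median of the enzymes minus that of all tested genes is -0.45 with the deposited scaling and -0.42 with upper quartile scaling. It is -0.03 without the library labelled Trf1+/+ replicate 1.

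That library was the highest of the 6 for 25 of the 42 enzymes (59.5%), against 27.4% of all tested genes. At a mean of 1000 or more it was the highest for 69.7% of the 33 enzymes and 55.2% of all genes. This mean includes that library, so genes high in it pass the cut more easily, and these 2 shares are raised by the cut itself. By role, the library labelled Trf1+/+ replicate 1 was the highest for 8 of 12 glycolytic enzymes and 12 of 14 enzymes of the citric acid cycle. It was the highest for 2 of 3 lactate enzymes and 2 of 4 gluconeogenic enzymes. For pyruvate dehydrogenase and its kinases it was the highest for 1 of 6, and for the side branches for 0 of 3. The enzymes took 3.38% of listed reads there (95% Wilson interval 3.37% to 3.39%) and between 1.61% and 2.34% in the other 5 libraries. These intervals and the limit of 3 reads cover counting error only, since the reads carry no molecular identifiers.

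**Figure D3:**
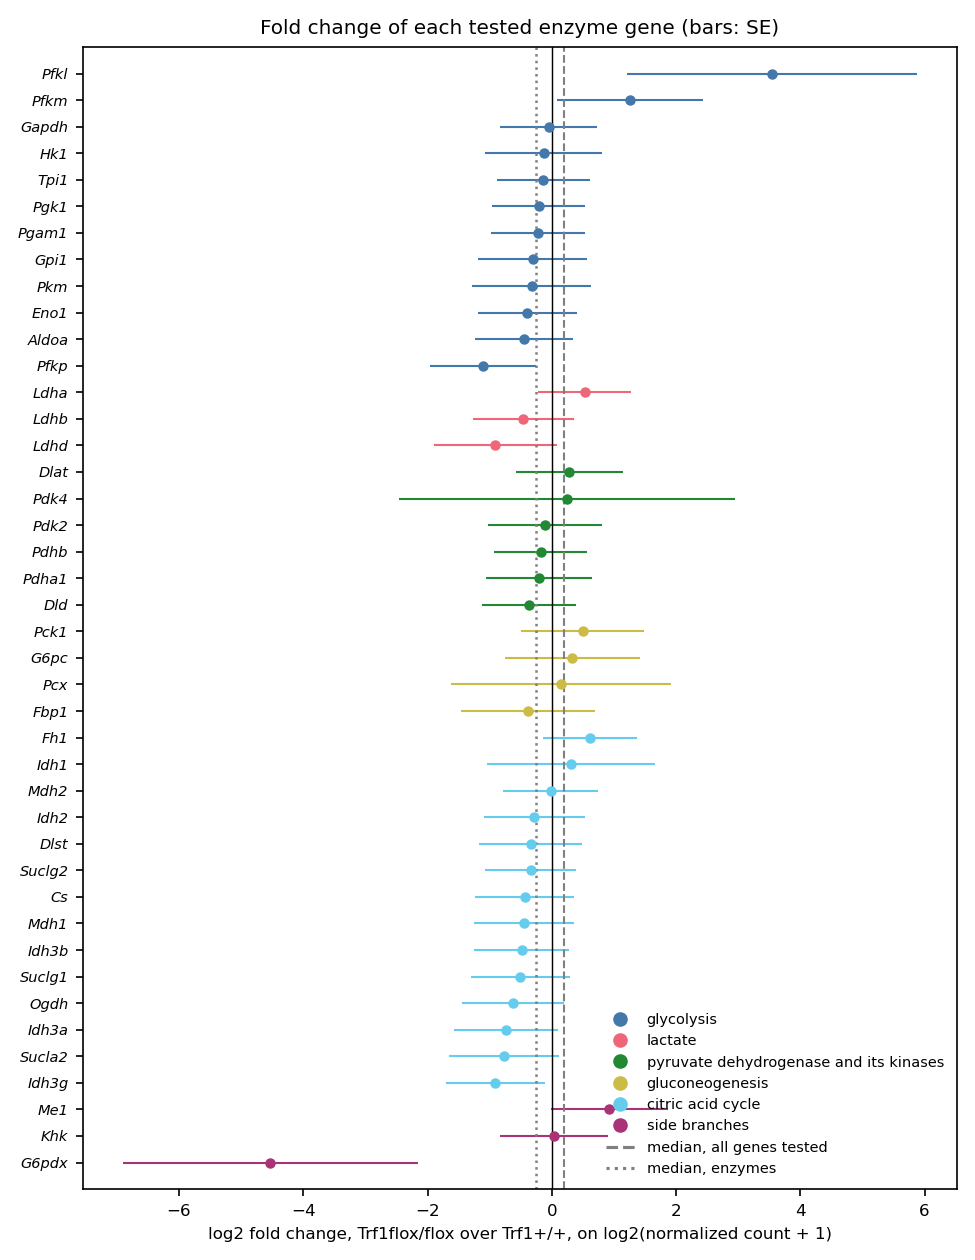
Log2 fold change of each tested enzyme, Trf1flox/flox over Trf1+/+, on the log2(normalized count + 1) scale, with bars for 1 SE and colours for the role. The dashed and dotted vertical lines mark the medians of all tested genes (0.20) and of the 42 enzymes (-0.25), and most bars cross 0.

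In glycolysis, 2 of 12 tested enzymes had a log2 fold change above 0 and 10 below it (median -0.22), and 6 were above 0 after upper quartile scaling (median -0.0016). Tpi1, Pgk1 and Pgam1 had the narrowest ranges. Tpi1, triose phosphate isomerase, ranged between 3246 and 5556 normalized counts over the 6 libraries, Pgk1, which makes the first ATP of the pathway, between 2279.5 and 3834, and Pgam1, phosphoglycerate mutase, between 2603 and 5439.5. Gapdh, glyceraldehyde phosphate dehydrogenase, ranged between 993 and 2220.3 normalized counts, and its log2 fold change of -0.05 (SE 0.78) turned positive with upper quartile scaling, scaling to total reads, edgeR and DESeq2. Aldoa, aldolase A, ranged between 6681 and 20099 normalized counts, Eno1, enolase 1, between 5995 and 17762, and Gpi1, glucose phosphate isomerase, between 1014 and 4246. With the deposited scaling, in all 3 the library labelled Trf1+/+ replicate 1 was the highest and Trf1flox/flox replicate 3 the lowest.

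Hk1, the hexokinase that traps glucose in the cell, had 863, 346 and 622 normalized counts in the Trf1+/+ mice and 1260.5, 399 and 279.8 in the Trf1flox/flox mice. Its highest and lowest values both came from Trf1flox/flox mice, and the log2 fold change of -0.13 (SE 0.94) changed sign with the scaling.

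The phosphofructokinases, which commit glucose to glycolysis, did not share a direction. Pfkl, the liver-type isoform, had 462, 0.829 and 297 normalized counts in the Trf1+/+ mice and 2083, 1003 and 190.2 in the Trf1flox/flox mice, and the value of 0.829 stands for 1 read. Pfkm, the muscle-type isoform, had 19.6, 154 and 141 normalized counts in the Trf1+/+ mice and 269.8, 303 and 74.4 in the Trf1flox/flox mice. Pfkp, the platelet-type isoform, had 1107, 745 and 925 normalized counts in the Trf1+/+ mice and 821, 219.7 and 419 in the Trf1flox/flox mice. The groups overlapped for all 3 genes. The log2 fold change was 3.54 (SE 2.34) for Pfkl, with an unadjusted p of 0.179 from limma, and without Trf1+/+ replicate 2, the library with 1 read, it was 0.99. For Pfkm it was 1.26 (SE 1.17), and 0.31 without the library labelled Trf1+/+ replicate 1, which was the lowest. For Pfkp it was -1.11 (SE 0.85), with the 2 lowest values in Trf1flox/flox mice and an unadjusted p of 0.238 from limma.

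Pyruvate kinase makes pyruvate and ATP at the end of glycolysis. Pkm, its form in most tissues, had 12555, 4160.2 and 3467 normalized counts in the Trf1+/+ mice and 6021, 7160.2 and 2156 in the Trf1flox/flox mice, so the groups overlapped widely. Pklr, the form of liver, red cells and proximal tubule, had 0, 0 and 132 normalized counts in the Trf1+/+ mice and 0, 0 and 50.3 in the Trf1flox/flox mice, and was not tested. The pair of libraries that held Pklr reads also had the highest summed hemoglobin transcripts of their genotypes, with 10432 and 52109.7 normalized counts, and the part of blood cells in these values was not tested.

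Lactate dehydrogenase was carried mostly by Ldhb, at 30219.5 normalized counts per kb against 893 for Ldha, a factor of 33.9. Ldha, the subunit that favours lactate formation, had 1887, 2018 and 3507 normalized counts in the Trf1+/+ mice and 3158, 3360.4 and 3795 in the Trf1flox/flox mice. Ldhb, the subunit that favours lactate use, had 85501, 57247 and 28294 normalized counts in the Trf1+/+ mice and 42693, 35780.3 and 35152 in the Trf1flox/flox mice. The 3 Trf1flox/flox values of Ldha lay above Trf1+/+ replicates 1 and 2, and replicate 3 lay among them. For Ldhb the library labelled Trf1+/+ replicate 1 was the highest and Trf1+/+ replicate 3 the lowest, while the 3 Trf1flox/flox values lay close together. The means of Ldha were 2471 ± 899.8 (SD, n = 3) for Trf1+/+ and 3438 ± 325 (SD, n = 3) for Trf1flox/flox, with a log2 fold change of 0.53 (SE 0.75). The means of Ldhb were 57014 ± 28604 (SD, n = 3) for Trf1+/+ and 37875 ± 4184 (SD, n = 3) for Trf1flox/flox, with a log2 fold change of -0.46 (SE 0.81) that was -0.09 without the library labelled Trf1+/+ replicate 1. The ratio of Ldhb to Ldha counts, with gene length left aside, was 45.3, 28.4 and 8.07 in Trf1+/+ and 13.5, 10.6 and 9.26 in Trf1flox/flox, so Trf1+/+ replicate 3 stood below every Trf1flox/flox library. The difference of the log2 ratio was -0.99, against an SD of 1.29 among Trf1+/+ and 0.28 among Trf1flox/flox mice. Ldhd, which oxidizes D-lactate, had 3211, 887 and 568 normalized counts in the Trf1+/+ mice and 406, 587 and 1024 in the Trf1flox/flox mice, and its log2 fold change of -0.91 (SE 0.99) was -0.18 without the library labelled Trf1+/+ replicate 1.

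Promoter sequences of 3 genes are shown because 2 of them, Ldha and Pgk1, hold the HIF1 core and Ldhb, the most abundant enzyme per kb, does not. They are the 250 bases before the start site on GRCm38.p6 from RefSeq, read 5′ to 3′ on the strand of the gene, with ACGTG or its reverse complement CACGT in capitals. Where both overlap they form the E-box CACGTG, which other factors also bind. The Ldha sequence (chr7:46845554-46845803, plus strand) lies in an intron of a longer annotated transcript. A second RefSeq window of Ldha, whose 250 bases (chr7:46846832-46847081, plus strand) are not shown, holds no ACGTG on either strand. The Pgk1 sequence (chrX:106186850-106187099, plus strand) and the Ldhb sequence (chr6:142507958-142508207, minus strand) lie directly outside the annotated genes.
Ldha: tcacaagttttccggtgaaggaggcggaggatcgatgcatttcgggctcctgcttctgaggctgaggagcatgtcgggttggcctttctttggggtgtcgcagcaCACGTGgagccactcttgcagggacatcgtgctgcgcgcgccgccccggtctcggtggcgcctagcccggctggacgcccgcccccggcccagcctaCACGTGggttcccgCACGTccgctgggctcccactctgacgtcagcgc
Pgk1: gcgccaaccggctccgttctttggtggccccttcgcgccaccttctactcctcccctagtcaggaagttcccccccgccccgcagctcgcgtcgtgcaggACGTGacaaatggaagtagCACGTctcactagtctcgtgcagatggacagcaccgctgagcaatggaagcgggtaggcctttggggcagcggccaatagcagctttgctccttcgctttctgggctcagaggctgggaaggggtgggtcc
Ldhb: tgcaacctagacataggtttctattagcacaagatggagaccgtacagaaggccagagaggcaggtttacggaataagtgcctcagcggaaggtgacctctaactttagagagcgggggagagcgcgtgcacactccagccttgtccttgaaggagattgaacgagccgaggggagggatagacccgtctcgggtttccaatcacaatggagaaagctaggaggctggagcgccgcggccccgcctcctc
Over windows from 250 bases before to 50 bases after each start, 26 of 63 windows of the named enzymes (41.3%) held ACGTG on either strand, against 19.6% of all 32851 windows. By gene, 19 of the 43 enzymes with a window had it, against 21.8% of 27025 genes, and a match is no evidence of binding. These 43 include Hk2, and Idh3a has no entry. Of the genes shown, Ldha had a log2 fold change of 0.53 (SE 0.75), Pgk1 of -0.21 (SE 0.74) and Ldhb of -0.46 (SE 0.81), each smaller than its SE in limma as reported. With a variance prior that follows the mean, the SE was 0.44, 0.43 and 0.45. Only the SE of Pgk1 was then larger than the size of its fold change.

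The pyruvate dehydrogenase complex links glycolysis to the citric acid cycle, and its 6 tested genes had 2 log2 fold changes above and 4 below 0 (median -0.14). Pdha1 and Pdhb, the E1 subunits, ranged between 2281 and 7559 and between 2520.1 and 4123 normalized counts. Dlat, the E2 subunit, ranged between 489 and 1744 and was lowest in the library labelled Trf1+/+ replicate 1. Its log2 fold change of 0.28 (SE 0.86) became -0.31 without that library. Dld, the E3 subunit, which is shared with the 2-oxoglutarate dehydrogenase complex, ranged between 2301 and 4264 normalized counts.

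The kinases switch the complex off by phosphorylation. Pdk2, a broadly expressed kinase, had 1517, 486 and 2247 normalized counts in the Trf1+/+ mice and 959, 1580.2 and 881 in the Trf1flox/flox mice. Pdk4, the kinase that fasting and fatty acids induce, had 0, 281 and 19.7 normalized counts in the Trf1+/+ mice and 384, 1.09 and 11.0 in the Trf1flox/flox mice. High and low Pdk4 values occurred in both genotypes, and its log2 fold change of 0.24 (SE 2.70) carried the largest SE of the set.

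The gluconeogenic enzymes overlapped between genotypes, and 3 of the 4 were lowest in the libraries with the least proximal tubule signal. Pcx, pyruvate carboxylase, which opens the pathway, had 1398, 16.6 and 633 normalized counts in the Trf1+/+ mice and 136, 374 and 411 in the Trf1flox/flox mice. Pck1, phosphoenolpyruvate carboxykinase, had 4356, 682 and 2999 normalized counts in the Trf1+/+ mice and 2983, 2178 and 3854 in the Trf1flox/flox mice. Fbp1 had 13294, 3160.1 and 13304 normalized counts in the Trf1+/+ mice and 2329, 10582 and 10248 in the Trf1flox/flox mice. Trf1+/+ replicate 2 was the lowest library for Pcx and Pck1 and the second lowest for Fbp1, after Trf1flox/flox replicate 1. G6pc, glucose 6-phosphatase, had 195, 455 and 1415 normalized counts in the Trf1+/+ mice and 866, 278 and 1033 in the Trf1flox/flox mice, with its lowest value in the library labelled Trf1+/+ replicate 1.

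The summed level of the 12 proximal tubule markers was 95841, 16254 and 75224 normalized counts for Trf1+/+ and 23909.5, 64452 and 125232 for Trf1flox/flox. Its lowest library, Trf1+/+ replicate 2, was also the lowest for 8 of the 42 tested enzymes, Pfkl, Pdk2, Pcx, Pck1, Idh1, Idh3b, Me1 and Khk. It was the lowest alone for 12.5% of all tested genes. Trf1flox/flox replicate 3, with the highest marker sum, was the lowest for 12 enzymes and the lowest alone for 7.22% of all tested genes. The 4 markers of the loop of Henle summed to 29624 to 117539 normalized counts, with the highest value in Trf1flox/flox replicate 1. The part of tubule content in the enzyme levels was not tested.

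**Figure D4:**
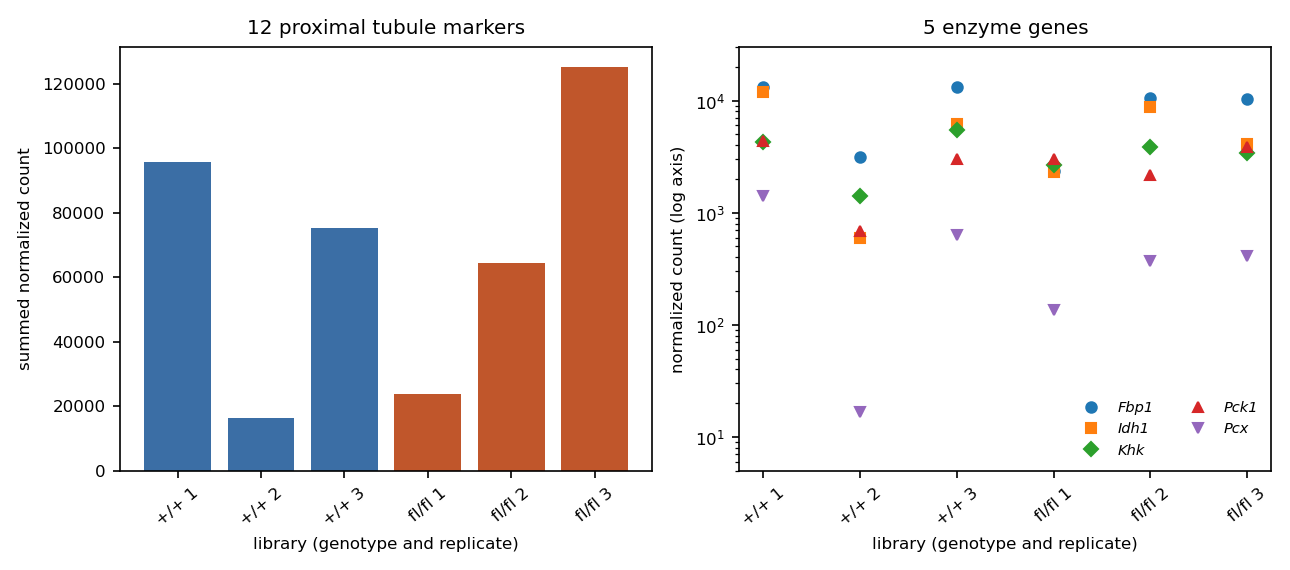
The left panel shows the summed normalized count of 12 proximal tubule markers in each library, and the right panel the normalized counts of 5 enzyme genes on a log axis, with +/+ for Trf1+/+ and fl/fl for Trf1flox/flox. The marker sum was lowest in Trf1+/+ replicate 2 and next lowest in Trf1flox/flox replicate 1, and Pcx, Idh1 and Khk had the same order of their lowest libraries.

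Of the 4 gluconeogenic enzymes, 3 had a log2 fold change above 0 and Fbp1 below it (median 0.24). The values were 0.50 (SE 0.99) for Pck1, 0.33 (SE 1.09) for G6pc, 0.15 (SE 1.77) for Pcx and -0.38 (SE 1.08) for Fbp1. The sign of Pcx turned with edgeR, which gave -1.02, and that of G6pc without the library labelled Trf1+/+ replicate 1, with -0.35.

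In the citric acid cycle, 2 of 14 enzymes had a log2 fold change above 0 and 12 below it (median -0.44), and 4 were above 0 without the library labelled Trf1+/+ replicate 1 (median -0.18). After upper quartile scaling 3 were above 0 (median -0.23). Cs, citrate synthase, which starts the cycle, ranged between 1346 and 3514 normalized counts.

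Isocitrate dehydrogenase 3, the NAD-dependent enzyme of the cycle, is built from 3 kinds of subunit. Idh3g, a regulatory subunit, was the single enzyme whose genotypes did not overlap. It had 8603, 3879 and 3487 normalized counts in the Trf1+/+ mice and 2181, 3256 and 2460.1 in the Trf1flox/flox mice, so every Trf1flox/flox value lay below every Trf1+/+ value. The gene lies on chromosome X at 73778963 to 73786897, on the minus strand of GRCm38. This is 1 of 42 tested enzymes (2.38%), against 8.68% of all tested genes without overlap, 3.33% lower and 5.35% higher in Trf1flox/flox. The means were 5323 ± 2848 (SD, n = 3) for Trf1+/+ and 2632 ± 558 (SD, n = 3) for Trf1flox/flox, and the log2 fold change was -0.91 (SE 0.80), with an unadjusted p of 0.296 and an adjusted p of 0.996 from limma. The unadjusted p was 0.0537 from edgeR, 0.0607 from DESeq2 and 0.0754 from limma with a variance prior that follows the mean. Without the library labelled Trf1+/+ replicate 1 the log2 fold change was -0.50. With libraries scaled to total listed reads the groups overlapped, and with upper quartile scaling they did not. With the deposited and the upper quartile scaling, though not with scaling to total listed reads, the distal tubule markers also summed to lower values in every Trf1flox/flox library. Their part in the Idh3g values was not tested.

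Idh3a, the catalytic subunit, had 11137, 4196 and 4539 normalized counts in the Trf1+/+ mice and 4941, 3874 and 2383 in the Trf1flox/flox mice. Idh3b, the other regulatory subunit, ranged between 1804 and 3951 normalized counts, and its 3 Trf1flox/flox values lay within 1937 to 2159. The log2 fold changes were -0.74 (SE 0.84) for Idh3a and -0.49 (SE 0.77) for Idh3b, and without the library labelled Trf1+/+ replicate 1 they were -0.29 and -0.26.

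The NADP-dependent isocitrate dehydrogenases differed in spread. Idh1, the cytosolic enzyme, had 11898, 597 and 6207 normalized counts in the Trf1+/+ mice and 2309, 8826 and 4119 in the Trf1flox/flox mice, a 19.9-fold range. Idh2, the mitochondrial enzyme, had 14612, 8879 and 5975 normalized counts in the Trf1+/+ mice and 11071, 7204 and 5385 in the Trf1flox/flox mice, a 2.71-fold range. The ratio of Idh2 to Idh1 counts was 14.9 in Trf1+/+ replicate 2 and 4.80 in Trf1flox/flox replicate 1, the libraries with the least proximal tubule signal, and lay between 0.816 and 1.31 in the other 4.

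The 2-oxoglutarate dehydrogenase complex and succinyl-CoA ligase follow in the cycle. Ogdh, the E1 subunit, had 7696, 4097 and 2471 normalized counts in the Trf1+/+ mice and 2642, 3389 and 2382 in the Trf1flox/flox mice, with a log2 fold change of -0.62 (SE 0.82) that was -0.20 without the library labelled Trf1+/+ replicate 1. Dlst, the E2 subunit, ranged between 491 and 1674 normalized counts, and Suclg1, the shared alpha subunit of the ligase, between 3677 and 10888. Sucla2, the beta subunit of the ATP-forming ligase, had 13137, 4536 and 3065 normalized counts in the Trf1+/+ mice and 4222, 3135 and 2826 in the Trf1flox/flox mice. Suclg2, the beta subunit of the GTP-forming ligase, had 3399, 2595 and 3264 normalized counts in the Trf1+/+ mice and 2261, 2198 and 2845 in the Trf1flox/flox mice. Suclg2 was the steadiest enzyme of the set, with a within-group SD of 0.21 on the log2 scale, while Sucla2 had an SD of 0.80. The log2 fold changes were -0.76 (SE 0.89) for Sucla2 and -0.34 (SE 0.73) for Suclg2, and the first became -0.16 without the library labelled Trf1+/+ replicate 1.

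Fh1, fumarase, and Idh1 were the enzymes of the cycle with a log2 fold change above 0. Fh1 had 1018, 1690.3 and 1346 normalized counts in the Trf1+/+ mice and 1569.8, 2497 and 2130.0 in the Trf1flox/flox mice, and only Trf1+/+ replicate 2 lay inside the range of the Trf1flox/flox mice. Its means were 1351 ± 336 (SD, n = 3) for Trf1+/+ and 2066 ± 467 (SD, n = 3) for Trf1flox/flox, with a log2 fold change of 0.62 (SE 0.75) and an unadjusted p of 0.442 from limma. It remained between 0.43 and 0.80 when any single library was left out.

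The malate dehydrogenases close the cycle and shuttle reducing equivalents. Mdh1 had 55449, 25348 and 19552 normalized counts in the Trf1+/+ mice and 17978, 24810.5 and 24364 in the Trf1flox/flox mice. Mdh2, the mitochondrial enzyme, had 15621, 8479.5 and 7484 normalized counts in the Trf1+/+ mice and 10271, 11018 and 8474 in the Trf1flox/flox mice. Per kilobase Mdh1 exceeded Mdh2, with 10875 against 2870.5 normalized counts per kb. The ratio of Mdh2 to Mdh1 counts was 0.282 to 0.383 in Trf1+/+ and 0.348 to 0.571 in Trf1flox/flox, and these ranges overlapped.

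**Figure D5:**
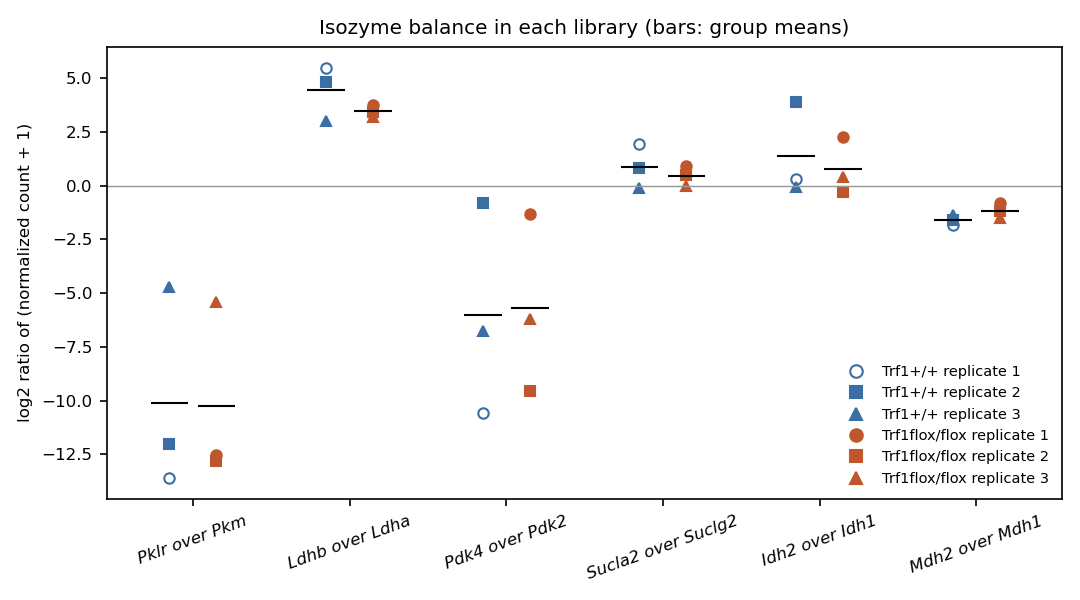
Log2 ratio of (normalized count + 1) between isozymes or isoforms in each library, with a bar at each group mean. The ratio of Ldhb to Ldha lies above 0 in all 6 libraries and that of Mdh2 to Mdh1 below 0, both genotypes overlap in every pair, and the ratios with Pklr and Pdk4 depend on the added 1 where these genes are at or near 0.

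Of the side branches, G6pdx had the smallest p of the set in limma as reported, while Idh3g had it in edgeR, DESeq2 and limma with the other prior. It encodes glucose 6-phosphate dehydrogenase, the entry to the pentose phosphate pathway. Its values were 165, 142 and 176 normalized counts in the Trf1+/+ mice and 0, 0 and 338 in the Trf1flox/flox mice. It lies on chromosome X at 74409483 to 74429194, on the minus strand of GRCm38. The 3 Trf1+/+ values were close together, while 2 Trf1flox/flox libraries were at 0 and Trf1flox/flox replicate 3 was the highest of all 6. The log2 fold change was -4.53 (SE 2.37), with an unadjusted p of 0.104 and an adjusted p of 0.996 from limma, and edgeR gave -0.35. In the libraries at 0, Trf1flox/flox replicates 1 and 2, 3.68% and 9.01% of the genes that average 100 or more elsewhere were also at 0.

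Me1, the cytosolic malic enzyme, which yields NADPH, had 641, 196 and 484 normalized counts in the Trf1+/+ mice and 409, 669.9 and 1522 in the Trf1flox/flox mice, with a log2 fold change of 0.92 (SE 0.94). Khk, ketohexokinase, which feeds fructose into the pathway in the proximal tubule, had 4234, 1419 and 5434 normalized counts in the Trf1+/+ mice and 2681, 3852 and 3421 in the Trf1flox/flox mice, with a log2 fold change of 0.04 (SE 0.87). The 3 Trf1flox/flox values of Khk lay within those of Trf1+/+.

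The median within-group SD on the log2 scale was 0.65 for the enzymes, 0.65 for tested genes that average 1000 or more normalized counts and 2.17 for all tested genes. The enzymes with the widest spread were those with few reads in some libraries, Pdk4 with an SD of 3.95, G6pdx with 3.43 and Pfkl with 3.38, followed by Pcx with 2.46 and Idh1 with 1.74.

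The other genes of these pathways included 1 at an unadjusted p under 0.05. Of 60 further genes named for glycolysis, pyruvate entry, the citric acid cycle, the pentose phosphate pathway and glycogen, 51 were listed and 44 tested, with 24 log2 fold changes above 0 and 20 below it (median 0.16, and 0.25 without the library labelled Trf1+/+ replicate 1). Limma called 0 of them after adjustment and 1 of the 44, Pdpr, at an unadjusted p under 0.05, against 4.56% of all tested genes. Pdpr encodes the regulatory subunit of pyruvate dehydrogenase phosphatase, which turns the complex back on. It had 1079.5, 528 and 275 normalized counts in the Trf1+/+ mice and 26.6, 59.0 and 40.7 in the Trf1flox/flox mice. The highest Trf1flox/flox value, 59.0, lay below the lowest Trf1+/+ value, 275. The log2 fold change was -3.72 (SE 0.89), with an adjusted p of 0.426 from limma and 0.00854 from DESeq2. Leaving out the library labelled Trf1+/+ replicate 1 gave -3.22. At an adjusted p under 0.05, DESeq2 called 0.582% of all tested genes.

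Groups without overlap were found for 3 of the 44 further genes (6.82%), a smaller share than the 8.68% of all tested genes. They were Pdpr and 2 with higher values in Trf1flox/flox. Over all tested genes, 3.33% were lower without overlap and 5.35% higher. Pdhx, which anchors the E3 subunit in the pyruvate dehydrogenase complex, had 291, 219 and 271 normalized counts in the Trf1+/+ mice and 299, 733 and 382 in the Trf1flox/flox mice. Pgd, phosphogluconate dehydrogenase of the pentose phosphate pathway, had 39.2, 121 and 114 normalized counts in the Trf1+/+ mice and 329, 178 and 232 in the Trf1flox/flox mice.

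Some of these counts are uncertain because near-identical copies can draw or lose reads. At 95% identity over at least 300 bases, Gapdh matched 74 annotated pseudogenes, Pgk1 4, Ldha 3 and Eno1 2, and Gpi1, Tpi1, Pgam1, Pkm, Ldhb, Pdhb, Suclg2 and Me1 matched 1 each. Of these, Gm5069, a Gapdh copy, was listed at up to 228 normalized counts, and Gm4735 and Gm5855, copies of Eno1, at up to 24.0 and 28.5. Eno1 also matched the gene Eno1b, and Gapdh the genes Gm10358, Gm3839, Gm4691 and Vmn2r60. Pfkp shared sequence with Pitrm1, Pklr with Hcn3, Pdha1 with Map3k15 and Me1 with Gm48795, and reads of overlapping genes cannot be told apart without strand.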

How the data were processed

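Kidney cells of 6 mice were profiled by RNA-seq, 3 of each genotype as GEO's labels give it. The authors copied RNA with oligo(dT) priming and template switching, aligned reads with TopHat2 2.0.10, Bowtie 1.0.0 and SAMtools 0.1.19 after FastQC 0.11.7, and counted them with HTSeq 0.6.1. The study's methods name GRCm38 and the submitters' processing notes GRCm39. The methods call the libraries non-stranded but give TopHat a stranded setting. Positions and exon lengths here are from GENCODE vM21 on GRCm38, matched by symbol for 11888 of 12125 genes (98.0%) and 42 of 43 enzymes, since Aldoa names more than 1 gene there.

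The deposited values are a signal: normalized read counts, scaled by the authors with 1 size factor per library; their notes name DESeq2 without a role. All values (100%) were whole multiples of 1 read within 0.001 reads, so whole reads were recovered, 10263382 to 12248797 per library. Genes with at least 10 normalized counts in 3 libraries (9966) were tested on log2(value + 1) with limma 3.58.1 in R 4.3.3, two-sided with Benjamini-Hochberg adjustment over all of them. A fold change on this scale understates that of genes low in every library. Where only some libraries are at or near 0 it can be larger than that from edgeR, as for Pfkl (3.54 against 2.17). Alternatives were upper quartile scaling, scaling to total reads, a pseudocount of 10, no filter, a filter of 50, edgeR 4.0.16, DESeq2 1.42.0, a variance prior that follows the mean (added after the data were seen) and leaving out each library. The script was tested on simulated data.

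The 44 enzymes and all lists were chosen with earlier results of these data known. Values per library are given for enzymes without overlap, the 12 smallest limma p, isozyme pairs and the gluconeogenic enzymes, and values of further pathway genes at an unadjusted p under 0.05. Those of Khk, Pdhx and Pgd are given outside this rule, chosen after they were seen. The labels name 1 mouse per library and no batch. Limits of 3 reads and Wilson intervals cover counting error only.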

Additional observations from a re-analysis of the deposited data

How the results depend on the processing

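No enzyme reached an adjusted p under 0.05 under any setting run, and over all genes DESeq2 called 58 while every other setting called 0. The count of enzymes with a log2 fold change above 0 was 12 as reported, 20 with upper quartile scaling and 8 to 19 after leaving out any 1 library, the 19 without the library labelled Trf1+/+ replicate 1. The count of enzymes without overlap was 1 as reported, 0 with scaling to total reads and 2 to 9 with a library left out, where 15.2% to 24.4% of all tested genes did not overlap. The 2 without the library labelled Trf1+/+ replicate 1 were Idh3g and Dlat. The median log2 fold change of the enzymes stayed below 0 under every setting run, between -0.44 and -0.04. Signs of single enzymes turned in 24 of 343 values under the settings that keep all libraries (11 genes) and in 35 of 258 with a library left out (19 genes), while 22 of 43 genes, Pdpr included, never turned. With upper quartile scaling the log2 fold changes that turned were Hk1 0.082, Tpi1 0.081, Gapdh 0.16, Pgk1 0.0015, Pdha1 0.0045, Pdhb 0.035, Pdk2 0.11 and Mdh2 0.20. With scaling to total reads the log2 fold changes that turned were Hk1 0.016, Tpi1 0.015, Gapdh 0.10, Pdk2 0.045 and Mdh2 0.13. With edgeR the log2 fold changes that turned were Hk1 0.13, Gapdh 0.067, Pcx -1.02, Idh1 -0.22 and Khk -0.11. With DESeq2 the log2 fold changes that turned were Hk1 0.10, Gapdh 0.022, Pcx -1.12, Idh1 -0.27 and Khk -0.14. With a pseudocount of 10 the log2 fold change of Pcx turned to -0.010. With a library left out, the log2 fold changes that turned ranged as follows, in log2 units: Hk1 -0.77 to 0.31, Gpi1 -0.59 to 0.21, Tpi1 -0.30 to 0.041, Gapdh -0.32 to 0.26, Pgam1 -0.45 to 0.081, Pkm -0.67 to 0.25, Pdha1 -0.60 to 0.26, Dlat -0.31 to 0.61, Pdk2 -0.74 to 0.36, Pdk4 -1.84 to 2.23, Pcx -1.77 to 1.39, Pck1 -0.30 to 1.03, Fbp1 -1.07 to 0.34, G6pc -0.35 to 1.07, Idh1 -0.97 to 1.18, Idh2 -0.59 to 0.051, Dlst -0.59 to 0.045, Mdh2 -0.22 to 0.31 and Khk -0.55 to 0.42. The cause was not tested. Pdpr passed an adjusted p of 0.05 with DESeq2 alone. No paired analysis was possible because the labels number no replicates and the numbers used here follow accession order.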
